A study of Homo sapiens with 12 samples.

Results

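The 10 genes described here encode the Slit ligands SLIT1, SLIT2 and SLIT3, the Robo receptors ROBO1, ROBO2, ROBO3 and ROBO4, and the intracellular GTPase-activating proteins of the srGAP family SRGAP1, SRGAP2 and SRGAP3. They were taken by symbol from a table of read counts for 28278 genes, and all 10 symbols were found. RNA was sequenced from 12 libraries of motor neuron cultures that had been differentiated over 16 days from the line WA09-Islet1-GFP, wild-type human embryonic stem cells that report the transcription factor Islet1 by GFP. Cultures received cis-chlordane, an organochlorine pesticide, at the 10 µM the labels state, or an equal volume of the solvent DMSO, for 16 hours, and were then sorted on GFP by flow cytometry. The 4 groups of 3 replicates were control GFP-positive, treated GFP-positive, control GFP-negative and treated GFP-negative cells. All groups come from this 1 line, so the spread between replicates covers separate cultures of 1 genome, and titles of the treated libraries also carry the word untreated, so treatment was read from the treatment entry.

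Slits are large secreted proteins that bind the first immunoglobulin domains of Robo receptors and repel growing axons and migrating cells. Heparan sulfate chains on cell-surface proteoglycans take part in the binding, and srGAPs attach to the cytoplasmic part of the receptor, where they switch off small GTPases and bend membranes. In the spinal cord the floor plate secretes Slits, motor neurons make both Slits and Robos, and the pathway keeps motor axons from crossing the midline and their cell bodies from entering the floor plate. ROBO3 stands apart in the family, since in mammals it lacks strong Slit binding and responds to NELL2, and ROBO4 is known from the endothelium.

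After cis-chlordane, 6 of the 9 members that could be tested were lower in GFP-positive cells by at least 2-fold, and 4 of 9 in GFP-negative cells, where 11.2% and 9.75% of all genes tested were. SRGAP3, ROBO2, SLIT1 and SLIT3 were called lower in both sort fractions, with SRGAP3 at 3.61-fold and 3.59-fold, while ROBO3 was called in neither. A gene is called where its 2 groups differed by at least 2-fold and the quasi-likelihood test of edgeR gave an adjusted p below 0.05. Levels are in CPM, the counts of a gene per 1000000 counts of its library, with TMM scaling over the 12 libraries.

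Library totals ran from 23414935 to 38347050 counts, with a median of 31553596, and no library pair of a group agreed within sampling noise. The sort was reflected in the markers of motor neurons (9 genes, among them ISL1, MNX1 and CHAT): their summed level was 1758 to 2362 CPM in control GFP-positive and 306 to 335 CPM in control GFP-negative libraries, and 7 of 9 were called higher in the GFP-positive cells and LHX3 lower (1.91 against 4.44 CPM on average), beside 7.47% and 15.3% of all genes. After treatment the sums were 551 to 872 CPM in GFP-positive and 112 to 137 CPM in GFP-negative libraries, with 7 and 5 of 9 called lower. For the same markers in GFP-negative cells, edgeR called 0 higher and DESeq2 called 1, and 1 had an unadjusted p under 0.05 in that direction. The markers of the floor plate (7 genes, among them FOXA2, SHH and NTN1), a known source of Slits, summed to 24.3 to 26.0 CPM in control GFP-positive, 7.07 to 8.53 in treated GFP-positive, 113 to 184 in control GFP-negative and 31.7 to 58.1 CPM in treated GFP-negative libraries, and 5 of the 6 tested were called lower after treatment in each fraction. FERD3L was the floor plate marker at 0 in all treated GFP-positive libraries, and no motor neuron marker was at 0 throughout a group. These sums fell with the treatment in both fractions, as the members below did where they were called. ROBO3 in both fractions, and SLIT2, ROBO1 and SRGAP1 in GFP-negative cells, had overlapping groups. The part of the marker sums in those results was not tested. In bulk RNA, fewer cells of a type and less RNA per cell cannot be told apart.

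**Figure D1:**
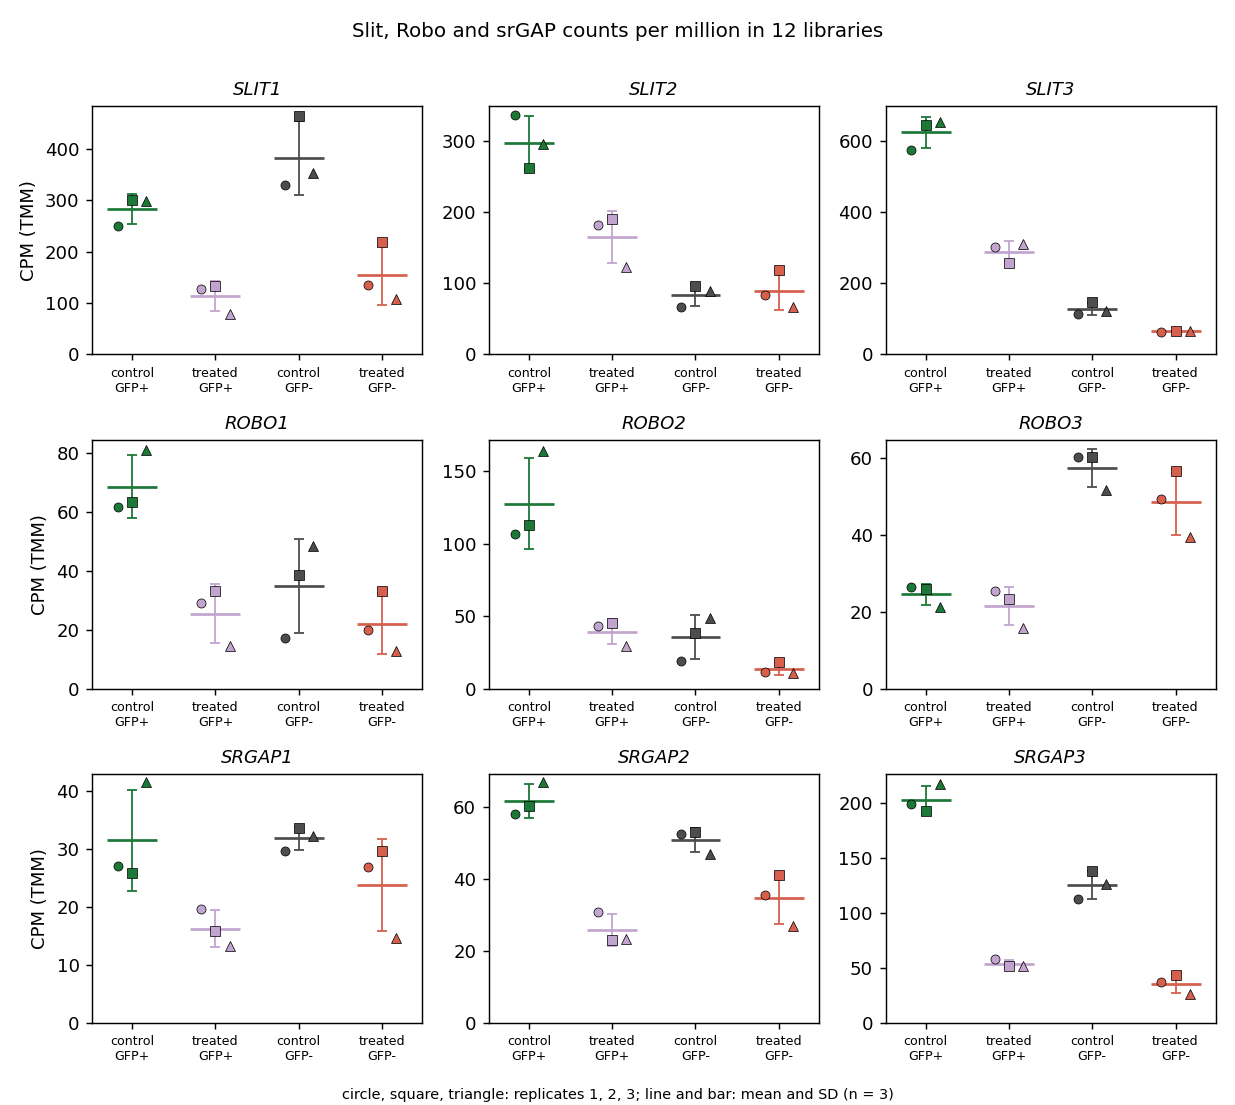
CPM (vertical axis, linear, TMM-scaled) of the 9 members with reads to test in each of the 12 libraries, with circle, square and triangle for replicates 1, 2 and 3 and the line and bar for mean and SD of 3 libraries. The 3 treated GFP-positive libraries lie below the 3 control GFP-positive libraries for every gene shown except ROBO3.

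The ligands were the most abundant of the 3 families. SLIT3, on chromosome 5 at 168661740 to 169301139 of hg38 on the minus strand, was at 576, 647 and 655 CPM in control GFP-positive replicates 1, 2 and 3 and at 302, 256 and 311 CPM in the treated ones. In GFP-negative cells it was at 115, 147 and 123 CPM in controls and 62.5, 65.9 and 66.9 CPM after treatment. Neither fraction had an overlap between treated and control libraries, and the 4 groups followed each other in the order control GFP-positive, treated GFP-positive, control GFP-negative, treated GFP-negative with no overlap between neighbors. SLIT3 fell by 1.04 on the log2 scale in GFP-positive cells (SE 0.16, adjusted p = 1.1e-06) and by 1.00 in GFP-negative cells (SE 0.16, adjusted p = 0.0012). The folds of 2.06 and 2.00 sit at the limit for a call, and the call in GFP-negative cells is lost under other settings at values from -0.999 with DESeq2 to -0.89 without control replicate 2. That in GFP-positive cells is lost at -0.97 without treated replicate 2, at -0.93 with library size as the scale and at -0.85 with the trend of counts with GC content removed.

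SLIT1 lies on chromosome 10 at 96998038 to 97185959, minus strand. Its levels were 250.2, 301 and 299 CPM in control GFP-positive libraries and 127, 133 and 79.4 CPM in treated ones. In GFP-negative cells the values were 329, 464 and 353 CPM in controls and 135, 218 and 108 CPM after treatment. Treated libraries were below every control library of their fraction, and replicate 3 was the lowest of the treated libraries in both. SLIT1 fell by 1.26 in GFP-positive cells (SE 0.17, adjusted p = 2.3e-07) and by 1.33 in GFP-negative cells (SE 0.26, adjusted p = 0.0041) on the log2 scale. With the trend of counts with GC content removed, the value in GFP-positive cells was -0.92, short of 2-fold.

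SLIT2, on chromosome 4 at 20251905 to 20620561 of the plus strand, was the ligand with no call in either fraction. It was at 336, 262 and 297 CPM in control and 183, 190.1 and 123 CPM in treated GFP-positive libraries, so the groups did not overlap. In GFP-negative cells it was at 66.4, 96.3 and 89.1 CPM in controls and at 83.2, 119.6 and 67.1 CPM after treatment, and these groups overlapped. The log2 difference was -0.79 in GFP-positive cells (95% interval -1.13 to -0.44, adjusted p = 0.00022), under 2-fold, and 0.08 in GFP-negative cells (95% interval -0.44 to 0.60, adjusted p = 0.82).

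Of the receptors, ROBO2 (chromosome 3, 75906695 to 77649964, plus strand) had the larger values in motor neurons. It was at 107, 113 and 164 CPM in control and 43.2, 45.5 and 29.3 CPM in treated GFP-positive libraries. In GFP-negative cells the levels were 18.7, 38.7 and 48.7 CPM in controls and 11.7, 18.5 and 10.5 CPM after treatment. No treated library reached a control library of its fraction, though control GFP-negative replicate 1 lay just above the highest treated one. ROBO2 fell by 1.63 in GFP-positive cells (SE 0.19, adjusted p = 5.7e-09) and by 1.40 in GFP-negative cells (SE 0.35, adjusted p = 0.013) on the log2 scale. The GFP-negative call is lost without control replicate 2 (adjusted p = 0.051), treated replicate 1 (0.073) or treated replicate 3 (0.078).

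ROBO1, which lies on the same chromosome at 78597239 to 79767998 on the minus strand, was at 61.4, 63.1 and 80.9 CPM in control and 29.0, 33.1 and 14.3 CPM in treated GFP-positive libraries, again without overlap. It fell by 1.36 on the log2 scale (SE 0.21, adjusted p = 2e-06). In GFP-negative cells the values were 17.2, 38.5 and 48.4 CPM in controls and 19.9, 33.2 and 12.7 CPM after treatment. These overlapped, with control replicate 1 low for this gene as for ROBO2, and the log2 difference of -0.68 did not pass (95% interval -1.59 to 0.24, adjusted p = 0.24).

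ROBO3 (chromosome 11, 124865432 to 124881471, plus strand) was the receptor with overlapping groups in both fractions. Its levels were 26.4, 26.0 and 21.4 CPM in control and 25.3, 23.5 and 15.8 CPM in treated GFP-positive libraries. GFP-negative libraries were at 60.5, 60.3 and 51.7 CPM in controls and 49.5, 56.7 and 39.6 CPM after treatment. The log2 differences were -0.12 (95% interval -0.52 to 0.27, adjusted p = 0.62) and -0.26 (95% interval -0.67 to 0.14, adjusted p = 0.30), and both intervals stop short of 2-fold. The sign in GFP-positive cells is not fixed, since it turned to 0.34 with the GC trend removed and to 0.06 without treated replicate 3. ROBO3 is best known from commissural interneurons, whose axons it lets approach the midline. Interneuron markers (11 genes, among them LHX2, LHX9, BARHL2 and EVX1) summed to 10.1 to 12.3 CPM in control GFP-positive, 0.689 to 2.09 in treated GFP-positive, 38.8 to 43.5 in control GFP-negative and 5.63 to 10.3 CPM in treated GFP-negative libraries. BARHL2 was at 0 in both GFP-positive groups, LHX2 in treated GFP-positive cells and LHX9 in both treated groups.

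ROBO4, the neighbor of ROBO3 on chromosome 11 (124883691 to 124898500, minus strand), had 1, 0 and 0 counts in control GFP-positive, 0, 0 and 1 in treated GFP-positive, 0, 1 and 0 in control GFP-negative and 0, 0 and 0 in treated GFP-negative libraries. It was too low to test, and no fold is given. Endothelial markers (7 genes) summed to 8.83 to 10.8 CPM in control GFP-positive, 10.8 to 12.7 in treated GFP-positive, 51.0 to 55.8 in control GFP-negative and 109 to 150 CPM in treated GFP-negative libraries. Of the last sum KDR alone gave a mean of 102 CPM, with PECAM1 at 0.618 and CDH5 at 1.17 CPM, and ERG was at 0 in the control GFP-positive and treated GFP-negative libraries. After treatment 1 endothelial marker was called higher and 2 lower in each fraction, of 4 tested in GFP-positive and 6 in GFP-negative cells. The shares of all genes were 12.8% and 11.2% in GFP-positive and 8.59% and 9.75% in GFP-negative cells. The median log2 difference of the tested markers was -1.685 and -1.347.

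Among the srGAPs, SRGAP3 (chromosome 3, 8980591 to 9363053, minus strand), which also binds the WAVE complex, gave the strongest call of the 10 genes. It was at 199, 193 and 217 CPM in control and 57.9, 51.4 and 51.4 CPM in treated GFP-positive libraries. The GFP-negative levels were 113, 138 and 126 CPM in controls and 36.9, 43.3 and 26.0 CPM after treatment. The groups stood far apart in both fractions, and control cells of either fraction exceeded every treated library. SRGAP3 fell by 1.85 in GFP-positive (SE 0.16, adjusted p = 1.1e-11) and by 1.84 in GFP-negative cells (SE 0.21, adjusted p = 0.00025) on the log2 scale.

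SRGAP2, which shapes membrane protrusions and spine maturation and lies on chromosome 1 at 206203346 to 206464436 on the plus strand, was at 57.8, 60.1 and 66.8 CPM in control and 30.8, 22.9 and 23.2 CPM in treated GFP-positive libraries. It fell there by 1.20 on the log2 scale (SE 0.18, adjusted p = 8.7e-07). GFP-negative cells had 52.3, 53.0 and 46.8 CPM in controls and 35.5, 41.1 and 26.9 CPM after treatment, without overlap, for a log2 difference of -0.57 (95% interval -1.004 to -0.146, adjusted p = 0.045) that is short of the required fold. The partial human copies SRGAP2B, SRGAP2C and SRGAP2D had 12 to 108 counts per library and no call in any comparison, and since reads can be shared with these copies, the values of all 4 genes are uncertain.

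SRGAP1 (chromosome 12, 63843761 to 64162217, plus strand) was at 27.2, 25.8 and 41.6 CPM in control and 19.7, 15.8 and 13.3 CPM in treated GFP-positive libraries. GFP-negative cells had 29.6, 33.6 and 32.3 CPM in controls and 26.8, 29.7 and 14.7 CPM after treatment, where the groups overlapped by 1 library. The log2 differences of -0.89 (95% interval -1.30 to -0.47, adjusted p = 0.00045) and -0.44 (95% interval -1.01 to 0.13, adjusted p = 0.21) were not called. In GFP-positive cells the gene does pass without control replicate 2 (-1.02), without treated replicate 1 (-1.05) or with the GC trend removed (-1.16). ARHGAP4, a further gene of the srGAP family listed with the copies, had values of -1.09 (SE 0.27, adjusted p = 0.0010) and -1.47 (SE 0.46, adjusted p = 0.036). In GFP-negative cells it was at 5.58, 6.14 and 19.8 CPM in control and 4.06, 3.998 and 3.43 CPM in treated libraries. Without control replicate 3 the value was -0.64 and not called (adjusted p = 0.0794). The call is also lost without treated replicate 1, 2 or 3 (adjusted p = 0.112, 0.0873 and 0.139). The same holds with the GC trend removed (0.107) and with the replicate block (0.0771). In GFP-positive cells it falls short of 2-fold without control replicate 1 (-0.93) or treated replicate 3 (-0.92) and with the GC trend removed (-0.55).

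Set against all genes, 11.2% of 15333 genes tested in GFP-positive cells were called lower and 12.8% higher, compared with 6 and 0 of the 9 members. In GFP-negative cells 9.75% of 15513 genes were called lower and 8.59% higher, compared with 4 and 0 members. DESeq2 also called 0 members higher in either fraction, and 0 had an unadjusted p under 0.05 in that direction. All treated libraries lay below all controls for 8 of 9 members in GFP-positive cells, where the share of all genes was 30.6%, and for 5 of 9 in GFP-negative cells, where it was 22.6%. The median log2 difference of the 9 members was -1.20 in GFP-positive and -0.68 in GFP-negative cells, and that of all genes tested was 0.03 and -0.01. Treated replicate 3 was the lowest treated library of SLIT1, SLIT2, ROBO1, ROBO2, ROBO3 and SRGAP1 in both fractions, and without it the count of called members was 6 in GFP-positive and 3 in GFP-negative cells.

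**Figure D2:**
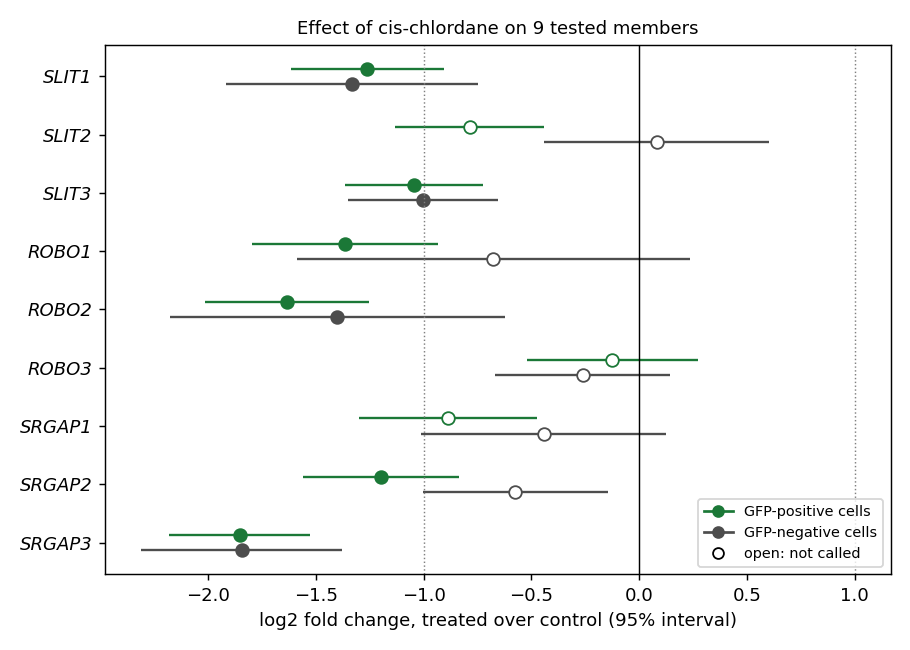
Log2 fold change of treated over control libraries (horizontal axis) with its 95% interval for the 9 tested members, in GFP-positive cells (green) and GFP-negative cells (grey), where filled points are called and dotted lines mark 2-fold. SRGAP3 is at -1.85 and -1.84 in the 2 fractions, and SLIT2 in GFP-negative cells is the point above 0, at 0.08.

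The response to treatment was then compared between the fractions in a fit of all 12 libraries. Across all genes 2.19% of 16226 had an interaction of treatment and fraction, and among the 9 members edgeR called 0 and DESeq2 called 0, while 2 of 9 had an unadjusted p under 0.05, where 16.6% of all genes did. These were SLIT2, whose difference between the fractions was -0.95 (GFP-positive minus GFP-negative, log2, 95% interval -1.61 to -0.29, adjusted p = 0.13), and SRGAP2 at -0.71 (95% interval -1.25 to -0.17, adjusted p = 0.17). The GFP-positive and GFP-negative libraries of a number were taken as sorts of 1 culture, which the titles do not state. In the fit with that culture as a block, 7.79% of all genes were called. SLIT2 passed there, as 1 of 9 members, at -0.95 with an adjusted p of 0.0215. For the other members the values were -0.01 for SLIT1, -0.13 for SLIT3, -0.77 for ROBO1, -0.32 for ROBO2, 0.05 for ROBO3, -0.53 for SRGAP1 and -0.09 for SRGAP3. Their intervals are wide for ROBO1, from -1.90 to 0.36, and narrower for SLIT3, from -0.54 to 0.29, so that a 2-fold difference in response is outside the interval of SLIT3 and inside that of ROBO1.

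The sort fractions were compared next, within control and within treated cultures. In control cultures SLIT3, ROBO2 and SLIT2 were higher in GFP-positive cells and ROBO3 was lower, which makes 3 of 9 members called higher and 1 called lower, compared with 7.47% and 15.3% of 15404 genes tested. SLIT3 was 4.53-fold higher in GFP-positive than in GFP-negative control cells (log2 2.18, SE 0.15, adjusted p = 3.6e-06), SLIT2 3.30-fold (log2 1.72, SE 0.18, adjusted p = 5e-05) and ROBO2 3.35-fold (log2 1.74, SE 0.32, adjusted p = 0.0019). ROBO3 was 2.51-fold lower (log2 -1.33, SE 0.16, adjusted p = 0.00012). All GFP-positive control libraries were above all GFP-negative ones for 6 members, among them SLIT2, SLIT3 and ROBO2, and below for SLIT1 and ROBO3, where 29.1% of all genes lay above and 24.1% below.

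The other members differed less. SLIT1 was lower in every GFP-positive control library, at a log2 difference of -0.54 (adjusted p = 0.025), and SRGAP3 was higher in every one, at 0.59 (adjusted p = 0.0073), both under 2-fold. ROBO1 was at 0.87 (95% interval 0.15 to 1.58, adjusted p = 0.053) and ranged from 0.54 without control GFP-negative replicate 1 to 1.21, where it passes, without control GFP-negative replicate 3. SRGAP1 at -0.12 and SRGAP2 at 0.18 had intervals from -0.58 to 0.34 and from -0.14 to 0.49, neither of which reaches 2-fold. The members thus ran in both directions with the sort, at a median of 0.59, where the median of all genes was -0.02.

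In treated cultures SLIT3 and ROBO2 were again higher and ROBO3 lower in GFP-positive cells. SLIT3 was 4.52-fold higher in GFP-positive treated cells (log2 2.18, SE 0.14, adjusted p = 2.2e-07), ROBO2 2.93-fold higher (log2 1.55, SE 0.25, adjusted p = 0.00024) and ROBO3 2.23-fold lower (log2 -1.16, SE 0.21, adjusted p = 0.00068). That makes 2 of 9 called higher and 1 lower, compared with 10.0% and 13.7% of 15416 genes. All GFP-positive libraries were above for 4 members and below for 1 (28.2% and 29.6% of all genes). SLIT2 differed by 0.89 (95% interval 0.41 to 1.38, adjusted p = 0.0056), which is short of 2-fold in this fit and over it without treated GFP-negative replicate 2 (1.17), without treated GFP-positive replicate 3 (1.05) or with library size as the scale (1.05). The ROBO3 call is lost at -0.99 under that scale, at -0.89 with the GC trend removed and at -0.99 without treated GFP-positive replicate 3. SRGAP1 and SRGAP2 were at -0.53 (adjusted p = 0.10) and -0.41 (adjusted p = 0.11), ROBO1 at 0.22 (adjusted p = 0.61), SLIT1 at -0.43 (adjusted p = 0.18) and SRGAP3 at 0.62 (adjusted p = 0.020).

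**Figure D3:**
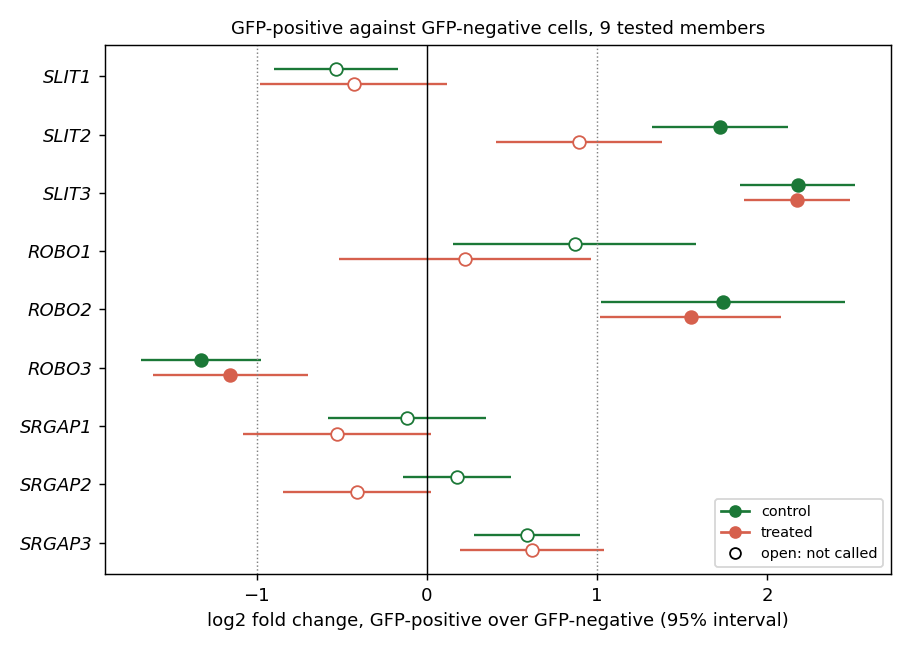
Log2 fold change of GFP-positive over GFP-negative cells (horizontal axis) with its 95% interval for the 9 tested members, in control cultures (green) and treated cultures (red), where filled points are called and dotted lines mark 2-fold. SLIT3 lies at 2.18 in both, ROBO3 is the called point on the left, and SLIT2 moves from 1.72 in controls to 0.89 in treated cells.

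Levels of different genes were compared per kilobase of the canonical transcript in GENCODE 44. In control GFP-positive cells SLIT3 stood at 64.4 ± 4.50 CPM per kb (SD, n = 3), SLIT2 at 37.0 ± 4.64, SLIT1 at 35.6 ± 3.63 and SRGAP3 at 22.7 ± 1.40. ROBO2 followed at 14.2 ± 3.501, ROBO1 at 9.88 ± 1.56, SRGAP2 at 8.94 ± 0.679, ROBO3 at 5.42 ± 0.611 and SRGAP1 at 1.38 ± 0.382 CPM per kb. In this order SLIT2 and SLIT1 differed by less than the SD of either, and ROBO1 and SRGAP2 by less than the SD of ROBO1. The order depends on the divisor: per kb of coding sequence SRGAP2 (19.2 ± 1.45) lay above ROBO1 (13.8 ± 2.18), and SRGAP1 (9.69 ± 2.69) above ROBO3 (5.91 ± 0.666). Control GFP-negative cells had another order, led by SLIT1 at 48.0 ± 9.04 and followed by SRGAP3 at 14.0 ± 1.39, SLIT3 at 13.2 ± 1.71, ROBO3 at 12.7 ± 1.11 and SLIT2 at 10.4 ± 1.94 CPM per kb, of which SRGAP3, SLIT3 and ROBO3 lay within 1 SD of their neighbors.

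The summed level of the ligands was 132 to 142 CPM per kb in control and 57.2 to 69.8 in treated GFP-positive libraries, and 61.4 to 85.4 in control and 28.8 to 49.0 in treated GFP-negative ones. The receptors summed to 26.5 to 34.6 and 8.81 to 15.003 CPM per kb in control and treated GFP-positive libraries and to 17.9 to 23.8 and 11.7 to 19.4 in the GFP-negative ones. The srGAPs summed to 31.4 to 35.8, 9.72 to 11.8, 21.5 to 24.6 and 7.46 to 12.1 CPM per kb in the same order. The receptor sums of control and treated GFP-negative cells overlapped, and no other pair of treated and control sums did.

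The make-up of the families also differed between the groups. SLIT1 gave 25.9% ± 2.01 (SD, n = 3) of the ligand level in control and 21.8% ± 3.90 in treated GFP-positive cells, and 66.9% ± 1.61 and 51.1% ± 4.39 in GFP-negative cells. The SLIT2 share in GFP-negative cells was 14.5% ± 1.49 in controls and 29.9% ± 0.925 after treatment, with no overlap, while the SLIT3 share was 18.5% ± 0.775 and 18.9% ± 5.03. Among receptors ROBO3 gave 18.9% ± 4.54 in control and 37.6% ± 2.68 in treated GFP-positive cells, and 60.0% ± 13.5 and 70.5% ± 5.14 in GFP-negative cells. The ROBO2 share was 47.6% ± 4.34, 34.4% ± 2.10, 17.6% ± 5.60 and 9.71% ± 1.02 in control GFP-positive, treated GFP-positive, control GFP-negative and treated GFP-negative cells. SRGAP3 gave 68.8% ± 1.05 of the srGAP level in control and 57.7% ± 2.46 in treated GFP-positive cells, and 61.5% ± 2.46 and 39.5% ± 0.487 in GFP-negative cells. In treated GFP-negative cells SRGAP2 gave 50.3% ± 1.77. Several of these shares depend on the divisor. With coding length SRGAP2 and SRGAP3 gave 37.7% ± 2.26 and 37.4% ± 0.617 in treated GFP-negative cells, so that neither led. The ROBO2 share was then 59.0% ± 3.83, 46.7% ± 2.58, 26.8% ± 7.17 and 15.9% ± 1.48 in the order of groups above, and ROBO2 led ROBO3 (27.2% ± 1.96) in treated GFP-positive cells, where ROBO3 leads per transcript length. The canonical transcript of SRGAP1 is 22920 bases long, and its share in control GFP-positive cells was 10.6% in place of 4.12%.

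**Figure D4:**
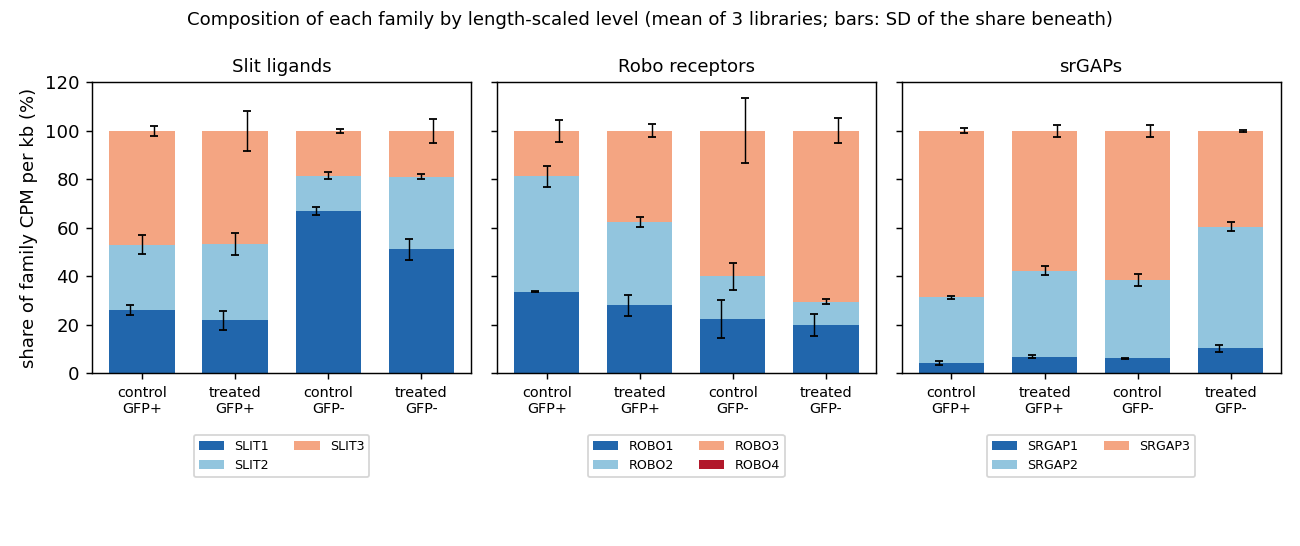
Share of each member in the summed CPM per kb of its family (vertical axis, percent, from 0) in the 4 groups, as stacked means of 3 libraries with the SD of the share beneath each bar end. SLIT1 gives 66.9% of the ligand level in control GFP-negative cells, ROBO3 gives 70.5% of the receptor level and SRGAP3 39.5% of the srGAP level in treated GFP-negative cells, and ROBO4 is too low to be seen.

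Ratios of the counts of a pair of members within a library carry no scaling between libraries. The count of SLIT2 per SLIT1 count was 0.202, 0.207 and 0.252 in control and 0.616, 0.548 and 0.619 in treated GFP-negative libraries, a log2 difference of 1.44. SRGAP3 per SRGAP2 was 3.44, 3.21 and 3.24 in control and 1.88, 2.24 and 2.21 in treated GFP-positive libraries, and 2.15, 2.60 and 2.68 against 1.04, 1.05 and 0.966 in GFP-negative ones. ROBO3 per ROBO2 was 0.247, 0.230 and 0.130 in control and 0.586, 0.516 and 0.541 in treated GFP-positive libraries. None of these pairs of groups overlapped, and each gave 0.1 in a two-sided exact permutation test, the smallest p that 3 against 3 libraries allow, and 0.144 after adjustment over the 36 ratios compared. The ROBO3 per ROBO2 ratio overlapped between control and treated GFP-negative libraries, where control replicate 1 stood at 3.23 and treated replicate 2 at 3.07.

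The promoters of SLIT3 and SRGAP3, called lower in both fractions, are shown with that of ROBO3, called in neither. Each is the stretch of 250 bases before the RefSeq start on GRCh38.p14, 5′ to 3′ on the strand of the gene, with motif matches in capitals. They are at chr5:169301140-169301389, minus strand, for SLIT3, chr3:9249647-9249896, minus strand, for SRGAP3 and chr11:124865182-124865431, plus strand, for ROBO3.
SLIT3: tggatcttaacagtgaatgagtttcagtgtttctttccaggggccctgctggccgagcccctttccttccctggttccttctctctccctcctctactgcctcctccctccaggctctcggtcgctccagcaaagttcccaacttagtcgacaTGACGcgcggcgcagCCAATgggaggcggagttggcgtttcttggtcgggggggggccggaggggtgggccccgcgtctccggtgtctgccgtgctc
SRGAP3: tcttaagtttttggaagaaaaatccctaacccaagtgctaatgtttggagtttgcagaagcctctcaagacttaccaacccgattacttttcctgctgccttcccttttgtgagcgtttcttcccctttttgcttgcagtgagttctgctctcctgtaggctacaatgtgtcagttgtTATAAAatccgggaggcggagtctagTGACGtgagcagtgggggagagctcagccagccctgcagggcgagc
ROBO3: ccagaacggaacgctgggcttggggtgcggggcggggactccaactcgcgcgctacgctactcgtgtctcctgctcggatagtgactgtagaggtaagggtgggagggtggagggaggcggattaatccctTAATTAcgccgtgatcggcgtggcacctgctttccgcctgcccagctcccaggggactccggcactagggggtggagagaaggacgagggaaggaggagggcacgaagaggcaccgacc

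The capitals in SLIT3 are TGACG, the core of the cyclic AMP response element, and CCAAT, those in SRGAP3 are TATAAA and TGACG, and those in ROBO3 are TAATTA, the core bound by many homeodomain proteins. Both strands were searched in the 250 bases of all 10 members and of 35116 RefSeq promoters. TGACG was found in 3 members (SLIT1, SLIT3 and SRGAP3) and 21.2% of all promoters, CCAAT in 3 (SLIT3, ROBO1 and SRGAP2) and 32.0%, TATAAA in 1 and 10.7%, and TAATTA in 1 and 4.35%. ACGTGG, the core bound by XBP1, was found in 0 of 10 and 8.37%, TGATGNAAT, a C/EBP-ATF element, in 0 of 10 and 0.888%, and the ER stress response element, which opens with CCAAT, in 0 of 10 and 0.0740%. A match describes letters and not binding, the absence of one covers these windows only, and the counts do not show which start a cell used: the RefSeq starts of ROBO1, ROBO2 and SRGAP3, among others, lie inside longer gene spans of GENCODE.

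SLIT2 and SLIT3 also host the microRNA genes MIR218-1 and MIR218-2, whose product miR-218 is abundant in motor neurons. MIR218-1 lies on the plus strand at chr4:20528275-20528384 in intron 15 of SLIT2, and MIR218-2 on the minus strand at chr5:168768146-168768255 in intron 14 of SLIT3. The mature RNAs are given because the hosts followed different courses, with the seed, bases 2 to 8, in capitals.
hsa-miR-218-5p: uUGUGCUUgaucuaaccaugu
hsa-miR-218-1-3p: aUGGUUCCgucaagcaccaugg
hsa-miR-218-2-3p: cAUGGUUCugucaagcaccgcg

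Both genes yield the same 5p RNA and different 3p RNAs. The MIR218-2 row held 17, 11 and 15 counts in control GFP-positive, 9, 11 and 10 in treated GFP-positive, 1, 3 and 0 in control GFP-negative and 0, 0 and 2 counts in treated GFP-negative libraries. Counts were thus seen mainly in the GFP-positive libraries, and the treated and control values of that fraction touched at 11. The treatment difference there was -0.66 on the log2 scale (95% interval -1.71 to 0.38, adjusted p = 0.29), and the gene was too low to test in GFP-negative cells. MIR218-1 had 4, 0 and 0 counts in control GFP-positive libraries and at most 1 elsewhere. Libraries made from poly(A) RNA do not measure the mature microRNA. On the strand opposite SRGAP3, SRGAP3-AS4, which overlaps the window printed above, had 12, 6 and 11 counts in control GFP-negative libraries, 0, 2 and 1 in control GFP-positive ones and 0 in all 6 treated ones, and SRGAP3 itself had 734 to 6770 counts over the 12 libraries.

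The wider pathway was followed with 55 partner genes in 4 lists, of which 54 passed the filter. In GFP-positive cells 1 was called higher and 8 lower, at a median log2 difference of -0.11, and in GFP-negative cells 2 were higher and 5 lower, at a median of -0.01. These counts stand beside the 12.8% higher and 11.2% lower of all genes in GFP-positive cells and the 8.59% and 9.75% in GFP-negative cells.

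The gene with the largest difference among them was NEDD4, a ubiquitin ligase that marks membrane proteins for turnover and is recruited to Robo1 by the adaptors NDFIP1 and NDFIP2. NEDD4 was at 5.52, 6.29 and 8.51 CPM in control and 84.5, 84.1 and 69.4 CPM in treated GFP-positive libraries, and at 7.22, 11.01 and 16.3 against 66.1, 68.9 and 51.5 CPM in GFP-negative ones. All treated libraries exceeded all controls, and NEDD4 rose by a log2 of 3.62 (SE 0.20, adjusted p = 1.1e-16) in GFP-positive and 2.42 (SE 0.29, adjusted p = 0.00031) in GFP-negative cells. NDFIP2 was called higher in GFP-negative cells, at 14.1, 14.2 and 17.4 CPM in controls and 28.7, 25.2 and 40.8 CPM after treatment (log2 1.03, SE 0.22, adjusted p = 0.0065). This call is lost without control replicate 1 (0.98), control replicate 2 (0.98) or treated replicate 3 (0.79) and with the GC trend removed (0.64). In GFP-positive cells NDFIP2 differed by 0.95 (SE 0.19, adjusted p = 8.2e-05), just short of 2-fold with all treated libraries above all controls, and the difference of its response between the fractions was not called. The other 5 tested genes of the list of trafficking and turnover, which holds the deubiquitinase USP33 and the protease ADAM10, were called in neither fraction.

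The list of proteoglycans and other binding partners had 15 tested genes, of which 5 were called lower in GFP-positive and 4 in GFP-negative cells. FLRT2, an adhesion protein of the FLRT family whose member FLRT3 binds Robo1, was at 25.9, 21.5 and 24.8 CPM in control and 4.80, 5.18 and 9.32 CPM in treated GFP-positive libraries (log2 -1.83, SE 0.23, adjusted p = 2.5e-08). FLRT1 fell by 1.44 in GFP-positive cells (SE 0.21, adjusted p = 7.2e-07). AGRN, which encodes the heparan sulfate proteoglycan agrin, fell by 1.25 in GFP-positive (SE 0.18, adjusted p = 3e-07) and by 1.26 in GFP-negative cells (SE 0.19, adjusted p = 0.0011), and with the GC trend removed it was short of 2-fold in both, at -0.67 and -0.91. HSPG2, the basement membrane proteoglycan perlecan, fell by 1.36 (SE 0.25, adjusted p = 0.0033) and the syndecan SDC1 by 1.25 (SE 0.18, adjusted p = 0.00096) in GFP-negative cells.

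Of 9 genes of heparan sulfate synthesis, HS6ST1, which adds sulfate to the 6-O position, was the called one in both fractions. It was at 362, 411 and 279 CPM in control and 103, 138 and 86.5 CPM in treated GFP-positive libraries, and at 305, 309 and 239 against 68.4, 98.1 and 56.2 CPM in GFP-negative ones, with no overlap. HS6ST1 fell by 1.62 (SE 0.18, adjusted p = 2.2e-09) and by 1.96 (SE 0.23, adjusted p = 0.00028) on the log2 scale. Of 23 cytoplasmic effectors, 2 were called lower in GFP-positive cells, the tyrosine kinase ABL1 and the actin regulator CAP2, at -1.003 and -1.002 (adjusted p = 2.6e-06 and 6.2e-06), which is at the limit and lost without control replicate 2 or 3 for both, without treated replicate 3 for ABL1 and without treated replicate 1 for CAP2, and 0 were called in GFP-negative cells by edgeR or DESeq2, where 7 had an unadjusted p under 0.05.

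**Figure D5:**
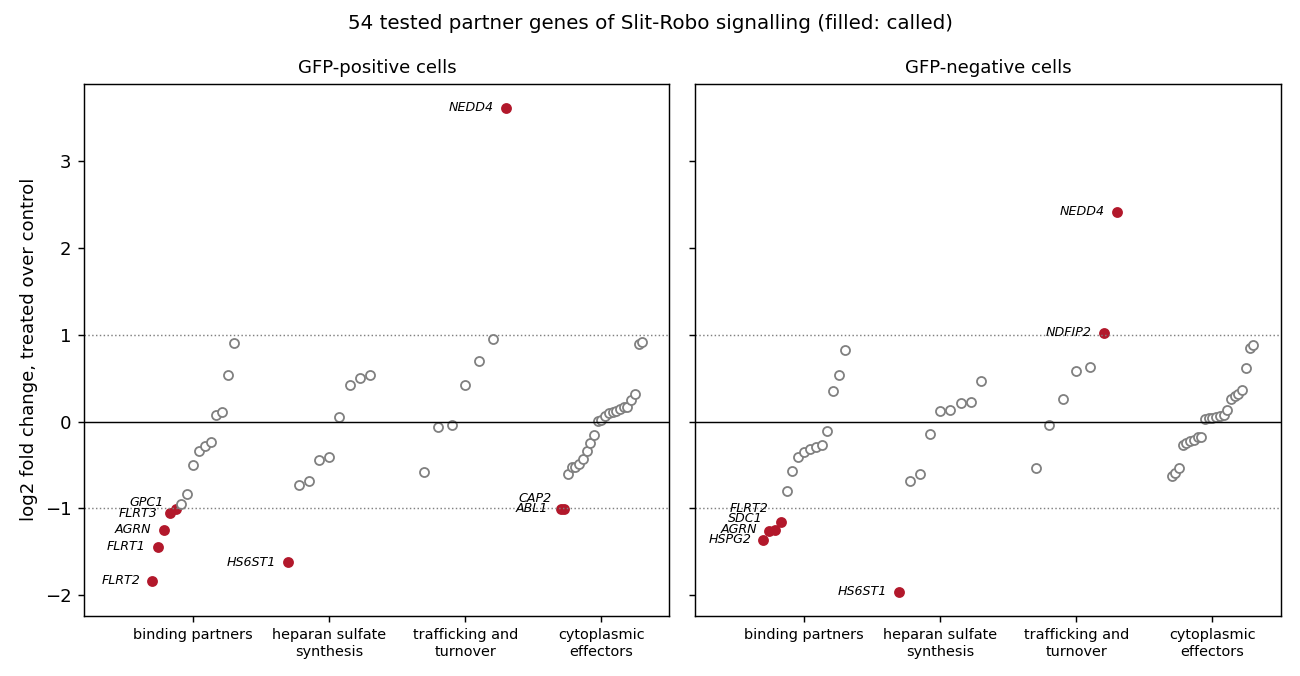
Log2 fold change of treated over control libraries (vertical axis) for the 54 tested partner genes by list (horizontal axis), in GFP-positive cells (left) and GFP-negative cells (right), where filled and named points are called and dotted lines mark 2-fold. NEDD4 stands at 3.62 and 2.42, HS6ST1 at -1.62 and -1.96, and most effectors lie between the dotted lines.

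Between the fractions, 5 partner genes were higher and 5 lower in GFP-positive control cells, and 4 were higher and 7 lower after treatment, of 54 tested, beside 7.47% and 15.3% of all genes in control and 10.0% and 13.7% in treated cultures. Lower in both were the syndecan SDC4 (log2 -3.38 in control and -3.27 in treated cells), the syndecan SDC2 (-2.91 and -3.47), HSPG2 (-2.59 and -2.03) and the actin-binding profilin PFN1 (-1.21 and -1.64). Higher in both were the microtubule plus-end protein CLASP2 (1.49 and 1.62), CAP2 (1.88 and 1.11) and the ubiquitin ligase NEDD4L (1.15 and 1.13). Both NEDD4L calls are lost with the length trend removed (0.85 and 0.75). They are also lost without control GFP-positive replicate 3 (0.97) and without treated GFP-negative replicate 3 (0.996), respectively. The CAP2 call in treated cultures is lost with the GC trend removed (0.91) or without treated GFP-negative replicate 3 (0.95). In treated cultures PAK3, a kinase activated by Rac and Cdc42, was called higher (1.37) and EXTL3, which starts heparan sulfate chains, was called lower (-1.36) in GFP-positive cells. With the length trend removed, PFN1 in control cultures (-0.90) and PAK3 in treated cultures (0.95) were short of 2-fold.

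The genes whose levels ran most like those of a member over the 12 libraries were sought among 13829 genes by the Pearson correlation of log2 CPM, which describes 4 groups of 3 libraries that share treatment and sort. For SLIT3 they were ISL1 (r = 0.988), the gene that GFP reports in this line, and ELAVL3 (0.988), a neuronal RNA-binding protein. VAT1L (0.972) is given for SLIT2, and for SLIT1 they were TSPAN14 (0.988) and SELENON (0.982). For ROBO2 they were AFAP1 (0.990) and RIMBP2 (0.989), for ROBO1 ERMAP (0.964) and GREB1 (0.959), and for ROBO3 SLC2A4RG (0.989) and HDAC7 (0.986). For SRGAP3 they were HOXD3 (0.989) and NLGN2 (0.987), for SRGAP2 GMEB1 (0.982) and TLE3 (0.969), and for SRGAP1 ALPK1 (0.935) and SMARCC1 (0.926).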

How the data were processed

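RNA of the sorted cells was made into stranded mRNA libraries and sequenced as single-end reads. According to the study's methods and the submitters' notes, the authors joined the lanes, aligned the reads to hg38 with HISAT2 and counted them per Ensembl gene with featureCounts; tool versions and the strand setting of the counting are not given in the sources used here. The deposited values are raw counts per gene symbol, not normalized. The labels give 10 µM cis-chlordane, and the study's methods give a higher concentration, so the dose is uncertain. A replicate is a separate thaw of the line, and batches were used only above a minimum share of Islet1-positive and MAP2-positive cells.

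From the deposited counts, fits were made with edgeR 4.0.16 (quasi-likelihood F-test, TMM scaling, filterByExpr with a minimum count of 10 and total of 15) in R 4.3.3, on the 6 libraries of each comparison, and on all 12 for the interaction. Adjustment was by Benjamini-Hochberg over all genes tested. Calls need an adjusted p under 0.05 and, except for the interaction, at least 2-fold. The alternatives were DESeq2 1.42.0, other scalings, filters, GC and length trends, replicate blocks, a test against 2-fold, and leaving out each library. Log2 fold intervals are 95%. Counts of at most 3 in a library were taken as the floor. The main fit was first tested on simulated data for the treatment in GFP-positive cells, the sort in controls and the interaction. DESeq2 and replicate blocks were also simulated for that treatment and the interaction. For that treatment, GC removal, the fit of all 12 libraries and the test against 2-fold were simulated too. The other comparisons and alternatives were not. Depth of 23414935 to 38347050 counts per library limits the low genes, and intervals cover these cultures only.

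GFP-positive and GFP-negative libraries of the same number deviated together from their group means over 13830 genes (r = 0.364, 0.114 and 0.278 in controls and 0.292, 0.278 and 0.455 in treated cultures), so they were taken as sorts of 1 culture. Treated and control libraries of a number did not all do so, at -0.0357, 0.153 and 0.192 in GFP-positive and -0.133, 0.427 and 0.0312 in GFP-negative cells. Treated GFP-negative replicate 1 with control replicate 3, of unlike number, stood at 0.315. Values of this size thus also arose between separate cultures, and the shared culture behind the block remains an assumption. The titles give a replicate number and do not state a shared culture. In controls, replicate 2 at 0.114 was near some pairs of unlike number. These were 0.0804 for GFP-positive 2 with GFP-negative 1 and 0.0779 for GFP-positive 3 with GFP-negative 2. The other pairs of unlike number in controls were negative. Deviations within a group cancel out, so such negative values follow in part from positive pairs of like number.

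All 10 members, the 2 genes most correlated with each of the 9 tested, and up to 3 called genes of each partner list per comparison, by size of the log2 difference, are named, except 1 correlated gene that is not reported here. Members and lists were chosen with earlier results of these data known. Lengths and GC come from GENCODE 44, in which 25763 of 28278 symbols were found, and promoter and microRNA sequences from RefSeq on GRCh38.p14, in which 10 of 10 members were found.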

Additional observations from a re-analysis of the deposited data

Results flagged for a closer look

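Of 9 members and 54 partner genes tested, 4 partner genes had a response to treatment that differed between the sort fractions by the interaction test of edgeR, given as the log2 change in GFP-positive minus that in GFP-negative cells. Of all 16226 genes 2.19% were called, and with each culture as a block 14 of the 54 partner genes and 7.79% of all genes were. Without single libraries the calls of GPC1, EXTL3 and VASP are lost, for GPC1 without control GFP-positive replicate 2 (-0.85) or treated GFP-positive replicate 1 (-0.84) or 3 (-0.78), for EXTL3 without the same libraries (-0.93, -0.90 and -0.90), and for VASP without any of 9 of the 12 libraries. The glypican GPC1 differed by -0.98 (SE 0.20, adjusted p = 0.020), with 423, 501 and 382 CPM in control and 210.3, 216 and 194 CPM in treated GFP-positive libraries, and 335, 368 and 291 against 282, 325 and 328 CPM in GFP-negative ones. SDC1 differed by 1.28 (SE 0.24, adjusted p = 0.010), with 35.2, 39.9 and 31.0 against 36.6, 39.2 and 33.7 CPM in GFP-positive and 139.6, 132 and 108 against 49.9, 64.8 and 46.8 CPM in GFP-negative libraries. EXTL3 differed by -1.05 (SE 0.21, adjusted p = 0.019), with 133, 171 and 152 against 87.9, 85.3 and 89.1 CPM in GFP-positive and 174, 210.5 and 190.2 against 215, 271 and 198 CPM in GFP-negative libraries. VASP, which promotes the growth of actin filaments, differed by -0.95 (SE 0.21, adjusted p = 0.030), with 83.0, 105 and 74.8 against 72.5, 68.9 and 70.5 CPM in GFP-positive and 103, 107 and 125 against 184, 177 and 159 CPM in GFP-negative libraries.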

How the results depend on the processing

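Over the alternatives run, 732 values of single members kept their direction and their side of the threshold, 30 fell below it, 11 passed it and 37 changed sign, mostly of values near 0. For every such value the cause was not tested, except that the test against 2-fold is stricter by construction. With that test 1648 of all genes, 2 members (ROBO2 and SRGAP3) and 4 partner genes were called in treated GFP-positive cells, 812 genes, 1 member (SRGAP3) and 2 partner genes in GFP-negative cells, and 1703 and 1560 genes (6 partner genes in controls) between the fractions in control and treated cultures. Of the values of called partner genes and ARHGAP4, 651 kept their call, 100 lost it and 0 changed sign over the same alternatives. Library size as the scale moved the median of all genes from 0.03 to 0.14 for the treatment in GFP-positive cells, from 0.05 to 0.22 for the sort of treated cultures and from -0.05 to 0.20 for the interaction.

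With the culture as a replicate block, 1264 genes and 1 member (SLIT2) had an interaction, and 1191 and 1 with the GC trend also removed, and the block changed no other member's call between the fractions. The interaction counted 798 genes with DESeq2 and 602 with the length trend removed. Between treated and control libraries, which share only a number, the replicate block left 6 members called in GFP-positive and 3 in GFP-negative cells.

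Sign changes of ROBO3 under treatment were to 0.34 with the GC trend removed and 0.33 with the block as well in GFP-positive cells, and to 0.0080 with the GC trend removed in GFP-negative cells. With the length trend removed SRGAP2 was at -0.080 between the fractions of control cultures and ROBO1 at -0.058 in treated ones. The interaction of SLIT1 was 0.045 with DESeq2, 0.045 with RLE scaling, 0.23 with library size, 0.14 with at least 10 counts per library, 0.15 without the GC trend, 0.0021 with the replicate block and 0.18 with block and GC together. That of SLIT3 was 0.13 and 0.032, and that of SRGAP3 0.15 and 0.060, with library size and with at least 10 counts.

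Leaving out 1 library at a time, the called members ranged from 5 to 7 in treated GFP-positive cells and from 2 to 4 in treated GFP-negative cells, the lower value without control replicate 2 or treated replicate 1. Genes with an interaction ranged from 141 (without control GFP-positive replicate 2) to 414. The treatment difference ranged from -0.26 to 0.056 for ROBO3 in GFP-positive and from -0.18 to 0.24 for SLIT2 in GFP-negative cells, and the difference between fractions from -0.37 to 0.035 for SRGAP1 in control and from -0.063 to 0.67 for ROBO1 in treated cultures. The interaction ranged from -0.19 to 0.35 for SLIT1, from -0.62 to 0.016 for ROBO2, from -0.055 to 0.39 for ROBO3 and from -0.26 to 0.098 for SRGAP3. Shares within a family moved by more than their SD in 22 of 36 cases when coding length, an alternative chosen after seeing the data, replaced transcript length. Depth limits ROBO4 and the microRNA genes. Counts were near the floor for ROBO4, for MIR218-1 and for MIR218-2 in GFP-negative cells. MIR218-2 had 9 to 17 counts in GFP-positive libraries.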

Other observations

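The remaining marker lists are given by their summed level in control GFP-positive, treated GFP-positive, control GFP-negative and treated GFP-negative libraries, in that order. Progenitor markers (9 genes, among them SOX2 and NES) stood at 2916 to 3272, 2365 to 3180, 6228 to 7991 and 7274 to 8339 CPM, and the treated and control libraries overlapped in both fractions. The sum hides opposite courses: in GFP-negative cells 4 of 8 tested were called lower, among them NES (2632 to 1119 CPM on average) and MKI67 (169 to 32.0 CPM), while VIM was at 3861 and 6424 CPM (log2 0.71, not called). Roof plate markers (7 genes) stood at 92.6 to 110.2, 36.0 to 50.1, 106 to 148 and 42.0 to 58.4 CPM. Most of each sum was BMP7 (means of 97.9, 40.4, 126 and 40.6 CPM), while MSX1 was called higher in treated GFP-positive cells (1.11 to 2.32 CPM). Glial markers (8 genes) stood at 10.6 to 13.5, 3.63 to 5.12, 48.5 to 80.2 and 12.2 to 19.2 CPM, without overlap between treated and control libraries. Single glial markers did not all fall: in GFP-negative cells 1 of 5 tested was called higher and 2 lower, beside 8.59% and 9.75% of all genes. Mesenchymal markers (7 genes) stood at 261 to 327, 50.9 to 82.7, 769 to 892 and 478 to 772 CPM, with an overlap in GFP-negative cells. Markers of pluripotent cells (5 genes) stood at 155 to 170.3, 49.2 to 60.6, 219.8 to 258 and 112 to 154 CPM. POU5F1 and TDGF1 were at 0 in every library, and NANOG in every group but treated GFP-positive. Only 2 of the 5 genes exceeded a mean of 1 CPM in each group. Where NANOG was at 0, the sum came from LIN28A and DPPA4 alone.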
